A study of Mus musculus with 6 samples.

Results

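The RNA of 35 genes that mark macrophages and related myeloid cells was compared between hearts of mice given ETX and hearts of mice given PBS (phosphate-buffered saline). The mice were C57BL/6J, aged postnatal day 14, and each treatment had lasted 1 week. The labels give the agent only as ETX, and no dose. The 35 were taken by symbol from a list that leaves out MHC class II and complement genes, out of 19938 genes with a transcript cluster (a set of array probes for 1 transcript region) of their own. The list was chosen with earlier results of these data known. Its counts beside the shares of all genes therefore describe the list and do not test it. All 35 were measured and all passed the filter on dim genes, among 14953 genes tested. Each group held 3 hearts (PBS replicates 3, 9 and 12, ETX replicates 6, 7 and 10) with 1 Affymetrix whole-transcript array per heart, and that number of arrays limits the precision. The labels call the hearts biological replicates without naming litter or batch, so p-values measure the spread between these hearts, whatever its source.

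Tissue macrophages of the heart are seeded before and around birth and, in adults, partly replaced from blood monocytes. They clear dead cells and debris, and they depend on the receptor CSF1R for survival, which binds 2 ligands, CSF1 and IL-34. The transcription factor PU.1, encoded by Spi1, drives the expression of many myeloid genes, and the factor MAF shapes resident tissue macrophages. The signals here come from RNA of the whole heart. Fewer macrophages and less RNA per macrophage cannot be told apart in such samples.

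The ETX hearts held less RNA of 9 of the 35 genes and more of 0. The 9 were the receptor gene Csf1r, the resident-macrophage genes Cbr2, Folr2 and Stab1, the Fc receptor Fcgr3 and the signalling adaptor Tyrobp, and the macrophage genes Adgre1, Mpeg1 and Cd86. They passed an adjusted p of 0.05 in limma over all genes tested, a rule by which 3.56% of all genes tested were called, 2.43% lower in ETX and 1.14% higher. At an unadjusted p under 0.05 in limma, 21 of the 35 genes were lower and 0 higher, against 13.1% and 8.86% of all genes tested. The mean difference lay below 0 for 33 of 35 genes, against 51.6% of all genes tested. The median log2 difference (ETX minus PBS) was -0.42 for the 35 genes and -0.0063 for all genes tested. The decrease was uneven: the differences ran from -1.28 for Lyz2, which did not pass, to 0.06 for Ms4a7. All 3 ETX hearts lay below all 3 PBS hearts for 21 of the 35 genes, against 16.1% of all genes tested, and above them for 0 genes, against 11.6%.

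**Figure D1:**
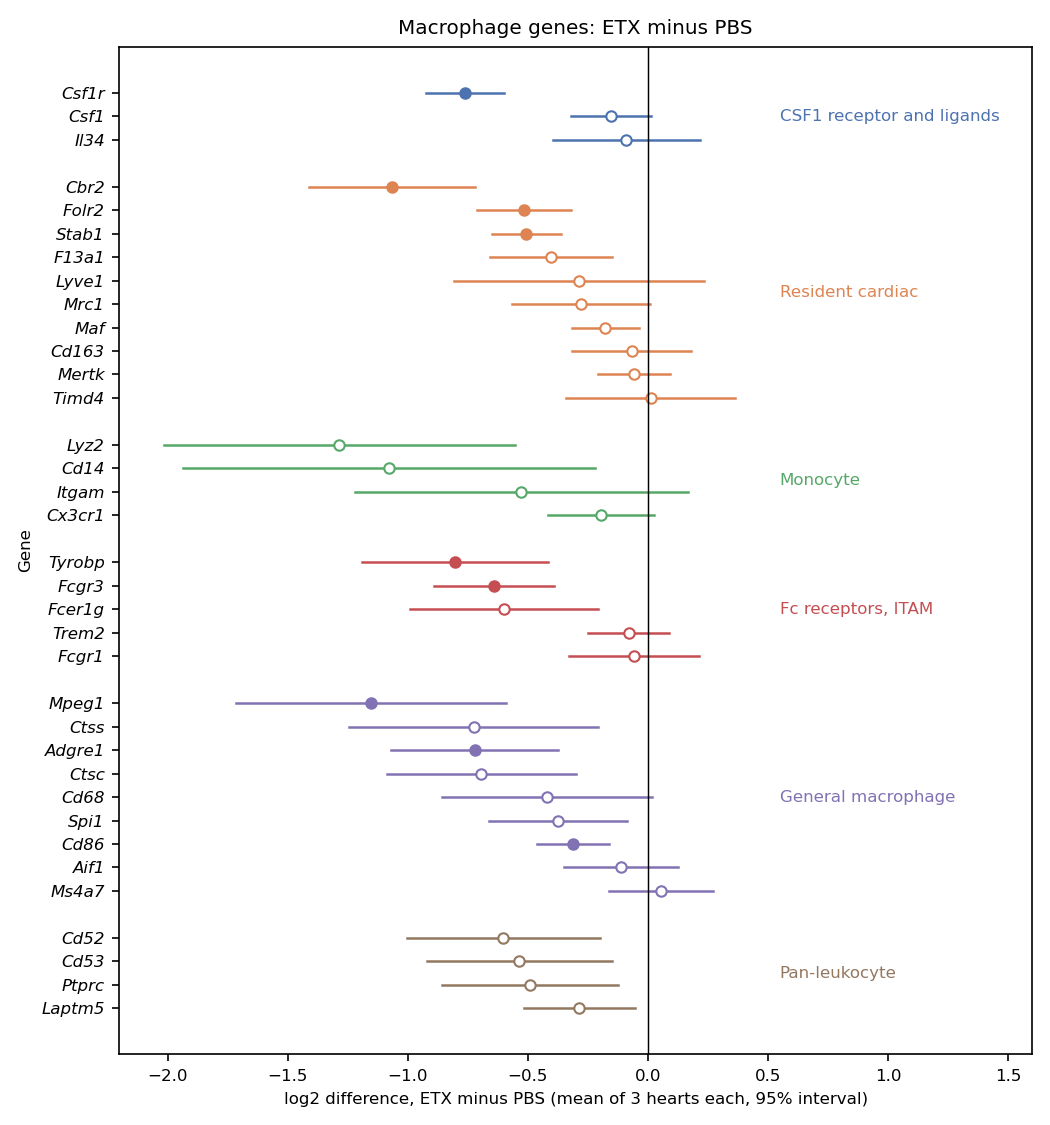
The log2 difference between the mean of the 3 ETX and the mean of the 3 PBS hearts is plotted for each of the 35 genes, with its 95% interval from limma, by role. Filled points passed an adjusted p of 0.05; the 9 filled points all lie left of 0, and the widest intervals are those of the monocyte genes Lyz2 and Cd14.

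Some properties of the hearts bear on these genes. PBS replicates 3 and 9 carried lung RNA. The surfactant gene Sftpc, made by alveolar epithelium, had a log2 signal of 8.12 and 8.58 in them, of 3.59 in PBS replicate 12 and of 3.10 to 3.31 in ETX. The mean log2 level of 12 lung markers was 5.56 and 6.84 in those hearts, 3.49 in PBS replicate 12 and 3.58 to 3.63 in ETX. The mean level of 10 cardiomyocyte markers was 12.2 to 12.3 in every heart, so the labelled tissue was borne out by its markers. Xist, which is expressed in females, was at 8.34 to 8.41 in PBS replicate 3 and ETX replicates 6 and 10, and at 2.61 to 2.87 in the other hearts. The mean level of 9 atrial markers was higher in PBS replicate 3 and ETX replicates 6 and 7 (7.62 to 8.06) than in the others (6.02 to 6.47). Among all called genes, the share lower in ETX was 68.1% on the deposited values, 78.6% once arrays were centred on their median and 58.3% once they were quantile normalized again. The called macrophage genes were all lower under these 3 scalings.

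Csf1r showed the smallest p of the 35. It stood at 7.83, 7.91 and 7.90 in the PBS hearts and at 7.06, 7.22 and 7.08 in the ETX hearts (log2 signal). The PBS hearts, with an SD of 0.045, lay close to each other, including PBS replicate 12 without lung transcripts, and every ETX heart lay below them. The difference of -0.76 (SE 0.07) is a 1.69-fold decrease (limma adjusted p = 0.0056), and it passed in each of the 6 fits without 1 heart, with an adjusted p of up to 0.026. The ligands moved less. Csf1, made by many stromal and endothelial cells, was at 6.83, 6.87 and 6.75 in PBS and 6.64, 6.58 and 6.76 in ETX, so the groups overlapped at PBS replicate 12 and ETX replicate 10 (difference -0.15, 95% interval -0.32 to 0.01, limma adjusted p = 0.27). Il34, the ligand best known from skin and brain, differed by -0.09 (95% interval -0.39 to 0.22, limma adjusted p = 0.744), and turned to 0.04 without PBS replicate 9.

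Spi1 and Maf, the transcription factors in the list, did not pass. Spi1 was at 6.11, 6.47 and 5.98 in PBS and 5.80, 5.72 and 5.92 in ETX (difference -0.37, SE 0.12, limma adjusted p = 0.136). Its groups did not overlap, but the lowest PBS heart lay only 0.06 above the highest ETX heart. The difference of Spi1 was -0.23 without PBS replicate 9 and -0.14 with the lung-marker score as a covariate. Maf, which is also expressed in endothelium, was at 6.66, 6.73 and 6.70 in PBS and 6.51, 6.52 and 6.51 in ETX (difference -0.18, SE 0.06, limma adjusted p = 0.142). For Maf the hearts within a group were close together and the groups were apart, with a small difference.

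Promoters are printed for 4 of the genes that fell, so that the letters PU.1 and MAF are known to recognise can be read in them. Promoter windows of 300 bases (250 before to 50 after a transcription start) were searched for 25 of the 35 genes in RefSeq (GRCm38.p6). They made 30 windows in all, some of them overlapping starts of 1 gene. A further 2 of the 35 genes lie on a chromosome that was left out of the search. The 6-letter PU.1 core GAGGAA, looked for on both strands, was present in 18 of the 30 windows and in 28.3% of all 32851 windows searched. The longer form GAGGAAGT, which contains the core, was present in 4 of the 30 windows and in 3.2% of all. Those 4 windows belonged to Cd53, Ctsc, Ctss and F13a1, none of which passed. The core was also present in windows of other genes that did not pass, such as Itgam and Mrc1. The MAF recognition motif TGCTGA was present in 10 of the 30 windows and in 19.5% of all. These matches describe letters and are not evidence of binding. In the windows below, each written 5′ to 3′ on the gene's strand, capitals mark the PU.1 core or its reverse complement TTCCTC. The MAF motif is not marked. It was present on 1 of the strands in the windows of Stab1, Cbr2 and Fcgr3 and absent from that of Mpeg1. The core begins 30 bases before the start of Stab1 (chr14:31168592-31168891, minus strand), 79 before that of Cbr2 (chr11:120731972-120732271, minus strand) and, as TTCCTC, 15 before that of Fcgr3 (chr1:171059345-171059644, minus strand). Mpeg1 (chr19:12460520-12460819, plus strand), the called gene with the largest decrease, holds no core in its window and is shown for comparison. Neither window of Folr2 holds the core.
Stab1: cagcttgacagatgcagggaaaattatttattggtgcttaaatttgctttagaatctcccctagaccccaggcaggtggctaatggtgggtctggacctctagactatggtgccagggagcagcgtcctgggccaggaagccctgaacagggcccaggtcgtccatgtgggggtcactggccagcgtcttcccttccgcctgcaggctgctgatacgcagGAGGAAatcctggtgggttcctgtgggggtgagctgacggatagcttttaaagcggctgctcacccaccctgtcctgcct
Cbr2: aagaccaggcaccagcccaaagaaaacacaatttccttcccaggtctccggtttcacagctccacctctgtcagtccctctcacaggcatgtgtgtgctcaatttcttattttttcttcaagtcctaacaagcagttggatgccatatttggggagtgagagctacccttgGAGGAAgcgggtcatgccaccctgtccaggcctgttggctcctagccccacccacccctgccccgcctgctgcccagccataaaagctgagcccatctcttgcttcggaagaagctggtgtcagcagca
Fcgr3: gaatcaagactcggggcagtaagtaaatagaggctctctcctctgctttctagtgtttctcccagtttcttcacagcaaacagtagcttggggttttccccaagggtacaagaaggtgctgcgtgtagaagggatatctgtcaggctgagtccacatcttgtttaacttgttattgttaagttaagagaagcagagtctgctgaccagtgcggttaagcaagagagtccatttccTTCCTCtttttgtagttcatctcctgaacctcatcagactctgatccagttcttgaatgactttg
Mpeg1: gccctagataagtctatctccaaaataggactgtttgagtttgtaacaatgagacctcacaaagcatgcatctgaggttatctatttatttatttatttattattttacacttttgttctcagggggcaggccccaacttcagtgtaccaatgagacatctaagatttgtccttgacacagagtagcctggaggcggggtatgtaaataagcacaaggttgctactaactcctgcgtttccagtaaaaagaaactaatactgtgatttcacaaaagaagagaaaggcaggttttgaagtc

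Of the 10 genes typical of resident cardiac macrophages, 3 fell and 7 did not pass, with a median difference of -0.28 (2.43% of all genes tested were lower). In limma, 5 of the 10 were lower and 0 higher at an unadjusted p under 0.05, against 13.1% and 8.86% of all genes tested. Stab1, a scavenger receptor also found on endothelium, was at 7.11, 7.04 and 7.09 in PBS and 6.56, 6.63 and 6.54 in ETX. The groups were far apart against a spread within them of 0.035 in PBS and 0.045 in ETX (SD, n = 3 each). It fell 1.42-fold (limma adjusted p = 0.00992) and passed in each of the 6 fits without 1 heart, up to an adjusted p of 0.0463. Folr2, a folate receptor of resident macrophages, was at 6.34, 6.55 and 6.41 in PBS and 6.04, 5.83 and 5.88 in ETX. No ETX heart reached the PBS range, and the gene fell 1.43-fold (limma adjusted p = 0.0251), although it passed only without ETX replicate 6 among the fits without 1 heart (adjusted p up to 0.0972). Cbr2, a carbonyl reductase of resident macrophages that is also abundant in club cells of the lung airway, was at 8.31, 8.12 and 7.89 in PBS and 7.34, 6.82 and 6.96 in ETX. The PBS heart without lung transcripts was the lowest of its group and still 0.55 above the highest ETX heart. Cbr2 fell 2.09-fold (limma adjusted p = 0.0144), and lost the call without PBS replicate 3, ETX replicate 7 or ETX replicate 10 (adjusted p up to 0.0604).

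The other resident genes differed little or varied within groups. F13a1, the coagulation factor XIII A chain that resident macrophages and monocytes express, was at 7.62, 7.76 and 7.90 in PBS and 7.52, 7.17 and 7.39 in ETX (difference -0.40, SE 0.11, limma adjusted p = 0.0867). Its groups were separate, yet close at PBS replicate 3 and ETX replicate 6. F13a1 passed with the trend and robust options of eBayes (adjusted p = 0.0424). Mrc1, the mannose receptor, was at 7.77, 7.94 and 8.13 in PBS and 7.57, 7.54 and 7.91 in ETX, where ETX replicate 10 lay within the PBS range (difference -0.28, 95% interval -0.56 to 0.01, limma adjusted p = 0.244). Lyve1, a hyaluronan receptor shared with lymphatic endothelium, ranged from 7.65 to 8.59 in PBS and from 7.55 to 8.04 in ETX (difference -0.29, limma adjusted p = 0.506). Its highest value was in PBS replicate 9, and without that heart the difference was -0.03. It was -0.50 without PBS replicate 3 and -0.17 without ETX replicate 7. Cd163, the haemoglobin scavenger receptor, differed by -0.07 (95% interval -0.32 to 0.18, limma adjusted p = 0.764). Mertk, a receptor for the uptake of dead cells, differed by -0.06 (95% interval -0.21 to 0.09, limma adjusted p = 0.659). Timd4, which binds phosphatidylserine on dead cells and marks long-lived resident macrophages, was at 3.77, 3.78 and 3.96 in PBS and 3.64, 3.67 and 4.23 in ETX, near the limit of 3.45 below which genes counted as dim. ETX replicate 10 was its highest heart, and the difference was 0.01 (95% interval -0.34 to 0.36, limma adjusted p = 0.975), with a sign that turned with arrays centred on their median (-0.02) or further quantile normalized (-0.02).

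Endothelium shares Stab1, Maf, Mrc1 and Lyve1 with resident macrophages, and its own markers were read beside them. Of 11 endothelial markers 3 fell, Tie1, Cdh5 and Esam, with a median of -0.25 over the list (2.43% of all genes tested were lower). Of the 11, 10 lay below 0, Eng being the exception (difference 0.07). In limma, 8 of the 11 were lower and 0 higher at an unadjusted p under 0.05, against 13.1% and 8.86% of all genes tested. All 3 ETX hearts lay below all 3 PBS hearts for 7 of the 11, against 16.1%. Each of these 2 counts was 21 among the 35 macrophage genes. The mean log2 level of the list was 8.77 to 8.82 in PBS and 8.49 to 8.63 in ETX. Of 6 lymphatic markers, Lyve1 among them, 0 passed in limma, 6 lay below 0 and the median was -0.26, with mean levels of 6.43 to 6.56 in PBS and 6.18 to 6.30 in ETX (unadjusted p under 0.05 in 5 of 6, all lower). The part of endothelial RNA in the decrease of Stab1 was not tested. Lists of other cells also held genes that fell. Of 8 fibroblast markers 1 fell, Pdgfra (1.42-fold, limma adjusted p = 0.0302), 6 lay below 0 and the median was -0.15. At an unadjusted p under 0.05 in limma, 3 fibroblast markers were lower and 1 higher. Of 4 tested T and NK cell markers 1 fell, Cd4 (1.35-fold, limma adjusted p = 0.0468), and 2 lay below 0.

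The Fc receptors, the signalling adaptors and Trem2 split into 2 that fell and 3 that did not pass (2.43% of all genes tested were lower). Of these genes, 3 were lower and 0 higher at an unadjusted p under 0.05 in limma. Fcgr3, a receptor for immune complexes, was at 7.02, 7.15 and 7.19 in PBS and 6.33, 6.71 and 6.39 in ETX. PBS replicate 12 was the highest of the 6 hearts, and the gene fell 1.56-fold (limma adjusted p = 0.0271). Among the fits without 1 heart it passed only without ETX replicate 7, its highest ETX heart (adjusted p up to 0.0762). Tyrobp, the adaptor DAP12 that signals through an ITAM (a tyrosine-based activation motif), was at 6.40, 7.02 and 6.31 in PBS and 5.75, 5.84 and 5.74 in ETX. The ETX hearts lay close together (SD 0.054, n = 3) and PBS replicate 9 stood 0.66 above the mean of the other PBS hearts. Tyrobp fell 1.74-fold (limma adjusted p = 0.0456), and the call held only without PBS replicate 9 among the fits without 1 heart (difference -0.58, adjusted p = 0.0217; up to 0.132 in the others). Fcer1g, the other ITAM adaptor, was at 7.78, 8.35 and 7.63 in PBS and 7.40, 7.20 and 7.37 in ETX and did not pass (difference -0.60, SE 0.17, limma adjusted p = 0.0953). Its groups were separate and PBS replicate 9 was again the highest. The difference of Fcer1g was -0.39 without that heart and -0.26 with the lung-marker score as a covariate. Fcgr1, the high-affinity IgG receptor, differed by -0.06 (95% interval -0.33 to 0.21, limma adjusted p = 0.817), with its highest value in ETX replicate 10. Trem2, a lipid-sensing receptor that pairs with DAP12, differed by -0.08 (95% interval -0.25 to 0.09, limma adjusted p = 0.57).

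Of the 9 general macrophage genes, 3 fell and 6 did not pass, and the median difference was -0.42 (2.43% of all genes tested were lower). In limma, 6 of the 9 were lower and 0 higher at an unadjusted p under 0.05, against 13.1% and 8.86% of all genes tested. Adgre1, which encodes the macrophage surface protein F4/80, was at 5.84, 6.36 and 6.05 in PBS and 5.11, 5.45 and 5.53 in ETX, and fell 1.65-fold (limma adjusted p = 0.0454). The nearest hearts were PBS replicate 3 and ETX replicate 10, and the hearts within each group were spread by 0.26 in PBS and 0.22 in ETX (SD, n = 3 each). Mpeg1, the pore-forming perforin-2 of macrophages, was at 5.92, 6.63 and 5.65 in PBS and 4.63, 5.21 and 4.90 in ETX. It fell 2.22-fold (limma adjusted p = 0.0462). PBS replicate 9 was the highest heart, and without it the difference was -0.87 (adjusted p = 0.0494). Cd86, a co-stimulatory ligand for T cells, was at 4.29, 4.31 and 4.35 in PBS and 3.96, 4.07 and 3.98 in ETX and fell 1.24-fold (limma adjusted p = 0.0434). Its difference was small and its groups narrow. Adgre1 and Cd86 lost the call in each of the 6 fits without 1 heart (adjusted p up to 0.123 and 0.121), and Mpeg1 in those without PBS replicate 3 or any ETX heart (up to 0.126).

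The lysosomal proteases among them were separate between the groups without passing. Ctss, cathepsin S, was at 7.22, 7.80 and 7.22 in PBS and 6.25, 6.73 and 7.08 in ETX (difference -0.73, SE 0.23, limma adjusted p = 0.118). ETX replicate 10 came within 0.13 of PBS replicate 12. Ctsc, cathepsin C, was at 7.43, 8.07 and 7.40 in PBS and 6.81, 7.04 and 6.98 in ETX (difference -0.69, SE 0.17, limma adjusted p = 0.0675). It passed with the filter set at the median of gene means (adjusted p = 0.0393). Cd68, a lysosomal membrane protein of macrophages, overlapped between the groups at PBS replicate 12 (5.67) and ETX replicate 7 (5.70), with a difference of -0.42 (limma adjusted p = 0.248). The difference of Cd68 was -0.18 without PBS replicate 9, -0.09 with PBS replicate 12 as the only control heart and -0.03 with the lung-marker score as a covariate. Aif1, which encodes the actin-binding protein IBA1, differed by -0.11 (95% interval -0.35 to 0.13, limma adjusted p = 0.576). Ms4a7 differed by 0.06 (95% interval -0.16 to 0.27, limma adjusted p = 0.775). The hearts of both genes lay near the dim limit, at 3.58 to 3.96 for Aif1 and 3.93 to 4.20 for Ms4a7.

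**Figure D2:**
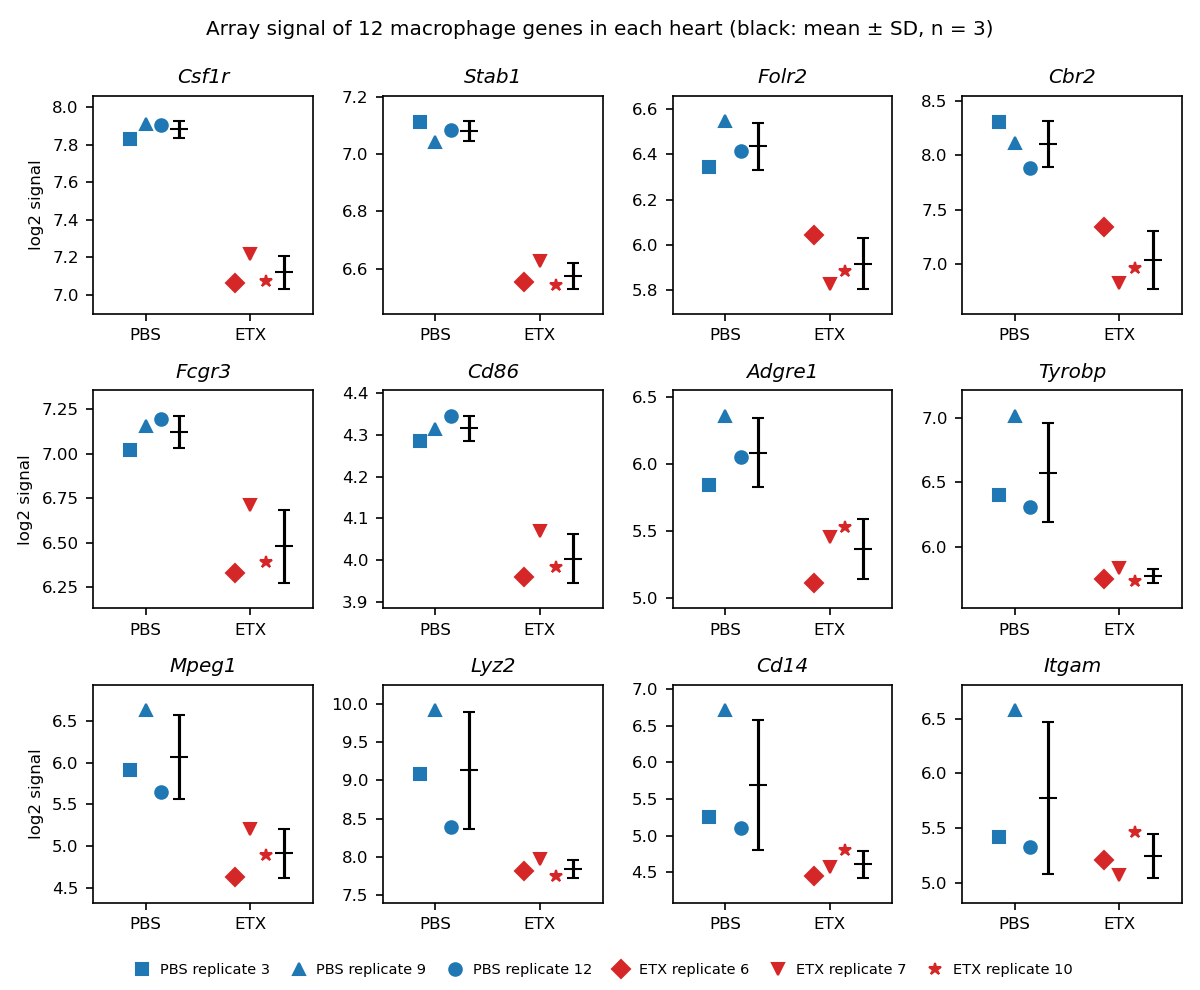
The log2 array signal of 12 genes is plotted for each heart, PBS in blue and ETX in red, with the mean and SD of 3 hearts in black; each panel has its own axis, which does not start at 0. For Csf1r, Stab1 and Cd86 the PBS hearts lie close together above ETX. For Lyz2, Cd14 and Itgam PBS replicate 9 lies 1.18, 1.54 and 1.21 above the mean of the other PBS hearts. It is also the highest heart for Csf1r, by a small margin (0.04 above that mean).

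None of the 4 monocyte-type genes passed in limma (0 of 4, with 2 lower at an unadjusted p under 0.05 and 0 higher), with a median difference of -0.80, the furthest from 0 among the 6 roles. Lyz2, the lysozyme of macrophages and neutrophils that alveolar epithelium also makes, was at 9.08, 9.92 and 8.40 in PBS and 7.81, 7.97 and 7.75 in ETX. PBS replicates 3 and 9, with lung transcripts, were higher than PBS replicate 12, which itself lay 0.42 above the highest ETX heart. The difference was -1.28 (SE 0.32, limma adjusted p = 0.0667), -0.89 without PBS replicate 9 (adjusted p = 0.0602) and -1.65 without PBS replicate 12, where it passed (0.0246). Lyz2 also passed with the filter set at the median of gene means (adjusted p = 0.0393). Cd14, the endotoxin co-receptor, was at 5.25, 6.71 and 5.10 in PBS and 4.45, 4.57 and 4.81 in ETX. Its difference of -1.08 (SE 0.37, limma adjusted p = 0.145) was -0.57 without PBS replicate 9 (adjusted p = 0.0614). Itgam, the integrin CD11b of monocytes and neutrophils, was at 5.41, 6.58 and 5.33 in PBS and 5.21, 5.07 and 5.47 in ETX. ETX replicate 10 exceeded 2 of the PBS hearts, and the difference of -0.53 (limma adjusted p = 0.353) was -0.12 without PBS replicate 9. Cx3cr1, the fractalkine receptor of patrolling monocytes and many tissue macrophages, was at 6.13, 5.97 and 5.87 in PBS and 5.77, 5.94 and 5.67 in ETX (difference -0.19, 95% interval -0.42 to 0.03, limma adjusted p = 0.287). Without PBS replicate 3 the difference of Cx3cr1 was -0.12.

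The 4 pan-leukocyte genes were also separate between the groups without passing in limma (0 of 4, with 4 lower at an unadjusted p under 0.05 and 0 higher). Ptprc, which encodes the leukocyte antigen CD45, was at 4.82, 5.35 and 4.76 in PBS and 4.29, 4.54 and 4.63 in ETX (difference -0.49, SE 0.16, limma adjusted p = 0.13). Cd52, a small surface glycoprotein of leukocytes, was at 6.22, 6.85 and 6.12 in PBS and 5.74, 5.89 and 5.76 in ETX (difference -0.60, SE 0.17, limma adjusted p = 0.1). Cd53, a leukocyte tetraspanin, differed by -0.54 (limma adjusted p = 0.12), and Laptm5, a lysosomal membrane protein of blood cells, by -0.29 (0.15). PBS replicate 9 was the highest heart for each of these 4 genes. Without it the differences were -0.30 for Ptprc, -0.37 for Cd52, -0.34 for Cd53 and -0.20 for Laptm5. With the lung-marker score as a covariate they were -0.21, -0.26, -0.30 and -0.19.

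PBS replicate 9 was the highest of the 6 hearts for 22 of the 35 genes, against 16.2% of all genes tested. Its level above the mean of the other PBS hearts differed between the roles, with a median of 1.19 for the monocyte genes, 0.57 for the pan-leukocyte genes, 0.42 for the general macrophage genes and 0.0076 for the resident genes. Markers of other myeloid cells followed the same heart. The mean log2 level of 13 neutrophil markers was 4.69, 5.58 and 3.71 in PBS and 3.97 to 4.30 in ETX, with S100a9, an abundant neutrophil protein, at 7.71, 8.67 and 5.32 in PBS and 5.81 to 6.36 in ETX. The mean level of 12 alveolar macrophage markers was 3.98, 4.77 and 3.62 in PBS and 3.78 in each ETX heart. Chil3, abundant in alveolar macrophages and in some monocytes, was at 5.85, 8.58 and 3.42 in PBS and 4.04 to 4.23 in ETX, whereas Siglecf, a defining surface marker of alveolar macrophages, was at 3.91 to 4.08 in PBS and 4.06 to 4.25 in ETX. A further list of 15 monocyte genes had mean levels of 4.77, 5.59 and 4.33 in PBS and 4.38 to 4.47 in ETX, and Ccr2, the receptor that draws monocytes into tissue, was dim in every heart (2.68 to 3.12). Neutrophil (0 of 11 tested, 0 at an unadjusted p under 0.05), alveolar macrophage (0 of 10, 1 lower at that level) and further monocyte genes (0 of 10, 1 higher at that level) did not pass in limma. In PBS replicate 12 the neutrophil, alveolar macrophage and further monocyte levels were below those of every ETX heart.

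**Figure D3:**
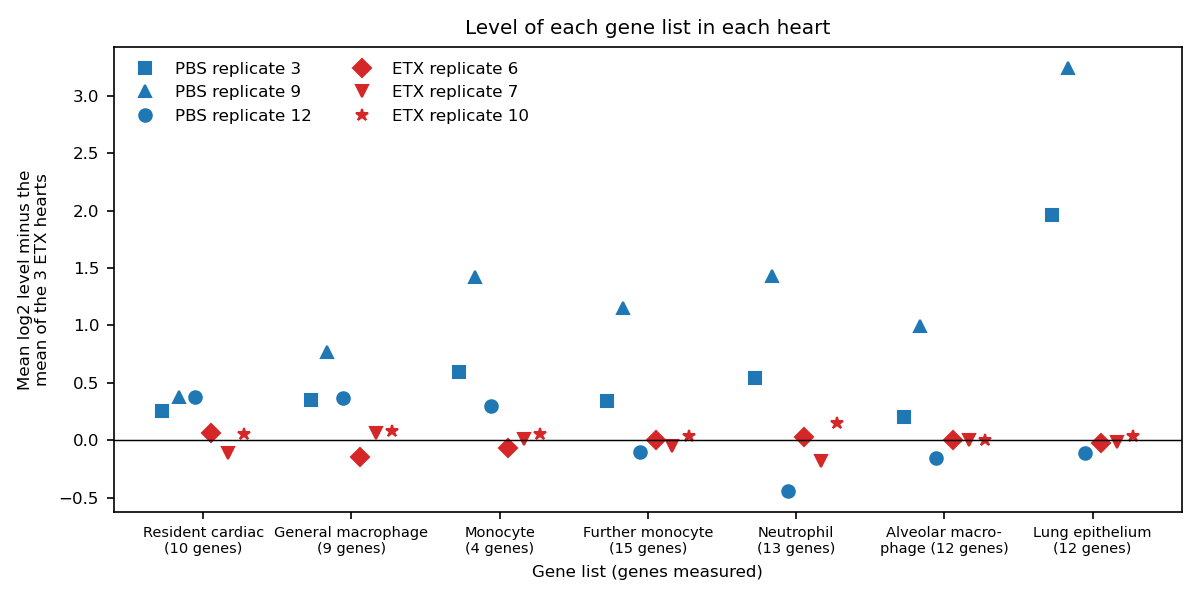
The mean log2 level of 7 gene lists in each heart is plotted after subtracting the mean of the 3 ETX hearts, so that 0 is the ETX average. PBS replicate 9 stands 1.42 above it for the 4 monocyte genes, 1.43 for neutrophil and 3.24 for lung markers. The 10 resident genes (0.25 to 0.37), the 9 general macrophage genes (0.35 to 0.77) and the 4 monocyte genes (0.30 to 1.42) lie above it in all 3 PBS hearts. The further monocyte, neutrophil, alveolar macrophage and lung lists lie below it in PBS replicate 12 (-0.10, -0.44, -0.16 and -0.11).

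PBS replicate 12, the control heart without lung transcripts, lay above all 3 ETX hearts for 25 of the 35 genes, against 33.4% of all genes tested. Its median excess over the ETX mean was 0.31 for the 35 genes and 0.38 for the resident genes, against 0.00024 for all genes tested. With PBS replicate 12 as the only control heart, 0 of the 35 genes passed in limma (there 0.0936% of all genes tested were lower in ETX and 0.0334% higher), 18 were lower at an unadjusted p under 0.05 and 0 higher, against 10% and 7.43% of all genes tested at that level. This fit assumes that the lone control heart varies like the others. Its spread comes from the 3 ETX hearts alone, so its p-values and counts take no account of the spread between control hearts. Over all PBS hearts the median SD of the 35 genes was 0.212, against 0.124 in ETX. For the monocyte genes it was 0.730 against 0.158. The order was reversed for the resident genes (0.123 against 0.146), the Fc receptor and adaptor genes (0.092 against 0.110), and Csf1r with its ligands (0.059 against 0.089). The differences of Csf1r (-0.78, adjusted p = 0.0711), Stab1 (-0.51, 0.111), Folr2 (-0.50, 0.136), Fcgr3 (-0.71, 0.13), Adgre1 (-0.69, 0.145) and Cd86 (-0.34, 0.18) were close to those over all hearts. Those of Lyz2 (-0.55), Cd14 (-0.49) and Itgam (-0.08) were less than those over all hearts by more than 1.5 times, as was that of Mpeg1 (-0.74). Tyrobp (-0.53) and Cbr2 (-0.85) lay between.

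With the lung-marker score as a covariate over all 6 hearts, 1 of the 35 genes passed in limma, Csf1r (difference -0.77, adjusted p = 0.0392), where 0.535% of all genes tested were called and 0.408% were lower in ETX. Stab1 kept its size (-0.52, adjusted p = 0.0596), as did Fcgr3 (-0.67, 0.0975), Folr2 (-0.46, 0.122) and Cd86 (-0.33, 0.145). Adgre1 went to -0.59 (0.187) and Cbr2 to -0.93 (0.0907). Mpeg1 went from -1.15 to -0.68 (0.171) and Tyrobp from -0.80 to -0.47 (0.165), both smaller by more than 1.5 times. Lyz2 went to -0.54 (0.124) and Cd14 to -0.33 (0.598), and Itgam turned to 0.06 (0.934). The covariate takes a degree of freedom. The score varied mainly among the PBS hearts (3.49 to 6.84, against 3.58 to 3.63 in ETX). The fit with the score therefore leans on PBS replicate 12 and is not independent of the fit with that heart as the only control. Without PBS replicate 9 alone, 5 genes were lower, Csf1r, Stab1, Cbr2, Tyrobp and Mpeg1, against 1.2% of all genes tested (1.61% called in either direction).

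**Figure D4:**
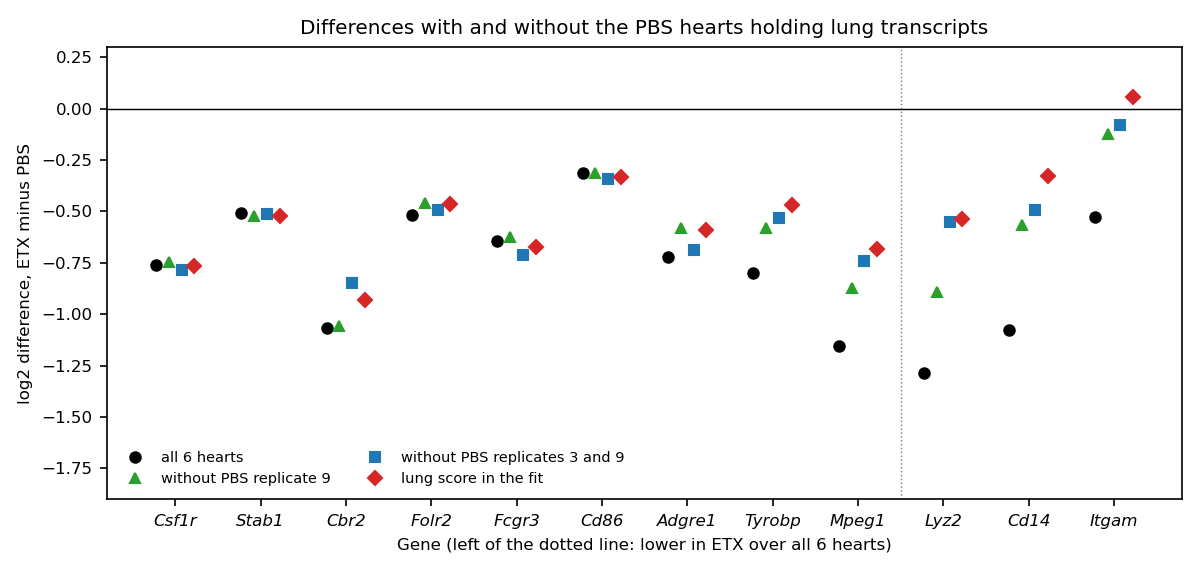
The log2 difference of the 9 genes lower in ETX and of 3 monocyte genes is plotted for all 6 hearts, without PBS replicate 9, without PBS replicates 3 and 9, and with the lung score in the fit. The 4 values of Csf1r lie between -0.78 and -0.75, while those of Itgam run from -0.53 to 0.06.

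Other genes of macrophages were read in the same way. Of 13 tested genes that accompany resident macrophages, 2 fell and 0 rose, with a median of -0.29, and 11 lay below 0. Among all genes tested, 2.43% were lower and 1.14% higher. In limma, 7 of the 13 were lower and 0 higher at an unadjusted p under 0.05, against 13.1% and 8.86% of all genes tested. Mgl2, a galactose-binding lectin of tissue macrophages, was at 5.10, 5.44 and 5.44 in PBS and 4.27, 4.07 and 4.56 in ETX (2.04-fold lower, limma adjusted p = 0.014). Fcrls, an Fc receptor-like scavenger protein, was at 6.53, 6.42 and 6.80 in PBS and 5.88, 6.06 and 6.03 in ETX (1.51-fold lower, limma adjusted p = 0.0318). PBS replicate 12 was the highest heart for both. Ccl24, a chemokine that attracts eosinophils, did not pass (difference -0.38, limma adjusted p = 0.0516). Pf4 and Slco2b1 went the other way without passing. Pf4 was at 6.35, 6.44 and 6.64 in PBS and 7.32, 6.58 and 6.72 in ETX (difference 0.40, limma adjusted p = 0.239). The difference of Slco2b1 was 0.07 (limma adjusted p = 0.742).

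Of 17 tested phagocytic receptors 1 fell, Sirpa (1.39-fold lower, limma adjusted p = 0.0363), and the median was -0.18. Sirpa binds the don't-eat-me signal CD47 and is also expressed in other cells. Of the 17, 7 were lower and 0 higher at an unadjusted p under 0.05 in limma. Of 15 lysosomal genes 1 fell, Lamp2 (1.31-fold, limma adjusted p = 0.0377), and 14 lay below 0, with 6 lower and 0 higher at an unadjusted p under 0.05. Lamp2 was at 9.71, 9.70 and 9.88 in PBS and 9.34, 9.34 and 9.44 in ETX. Which cells of the heart its RNA came from was not tested. Of 13 tested myeloid transcription factors 1 fell, Runx1 (1.41-fold, limma adjusted p = 0.0473), a factor of blood cells, and the median was -0.10. At an unadjusted p under 0.05 in limma, 4 of them were lower and 1 higher. The higher one was Bhlhe41, at 6.11, 5.70 and 6.12 in PBS and 6.32, 6.48 and 6.62 in ETX (difference 0.49, limma adjusted p = 0.0775). Of 20 tested receptors and signalling proteins of the colony-stimulating factor and ITAM pathways 0 passed in limma (4 lower and 1 higher at an unadjusted p under 0.05), with a median of -0.10. The lectin receptor Clec7a (difference -0.48, limma adjusted p = 0.0586) and the phosphatase Inpp5d, which limits signalling downstream of CSF1R (-0.34, 0.1), had the lowest p among those below 0. Plcg2, a phospholipase downstream of ITAM receptors, was at 5.26, 5.54 and 5.54 in PBS and 5.69, 5.83 and 5.80 in ETX (difference 0.33, limma adjusted p = 0.097), the other way from Csf1r and Tyrobp.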

How the data were processed

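Each of 6 hearts was read on its own Affymetrix array. The deposited log2 values, 1 per transcript cluster, were made by the authors with RMA in Affymetrix Expression Console, per the submitters' processing notes, and their array medians were 4.43 to 4.51. Of 35556 clusters, 21789 carried 1 gene symbol in the platform's annotation, 1621 several and 12146 none. A gene's cluster with the highest mean over the 6 arrays was used, and genes below the lower quartile (25%) of gene means, 3.45, were left out.

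ETX and PBS were compared by limma 3.58.1 (lmFit and eBayes, R 4.3.3), two-sided, with Benjamini-Hochberg adjustment over 14953 genes and a threshold of 0.05. On simulated data with these 14953 genes, 94% of 100 genes changed 1.5-fold and 100% of 100 changed 2-fold were recovered, and 6 others were called. The simulated noise was independent between genes, with the SD that limma had estimated, and held no lung RNA shared by PBS replicates 3 and 9. These recovery rates do not carry over to genes that vary between the PBS hearts. Lyz2, 2.44-fold lower in the real hearts, did not pass. Arrays correlated at 0.989 to 0.994 within groups and 0.985 to 0.989 between them.

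The members and lists were chosen with earlier results of these data known. Every member is named; of other lists, genes past the threshold, otherwise up to 4 with the smallest p, and defining markers of other cell types. Alternatives were other filters, eBayes settings, array weights, scalings, cluster means, lung, atrial and Xist covariates, and hearts left out. Scripts used Python 3.11.15 and matplotlib 3.10.9.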

Additional observations from a re-analysis of the deposited data

How the results depend on the processing

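Against 9 macrophage genes lower in ETX, 5 were lower with no filter on dim genes, 0 without PBS replicates 3 and 9, 1 with the lung score, 3 with the atrium score, 4 with the Xist level, and 2 to 5 with 1 heart left out. With the filter at the median 10 of 28 tested were lower, gaining Ctsc and Lyz2 and no longer testing Cd86, and with the trend and robust eBayes 8, gaining F13a1 and losing Cd86 and Mpeg1. Quantile normalization gave 7, without Adgre1 and Tyrobp, and array weights, centred arrays and cluster means gave 9. In each of these settings 0 were higher. Of the 35 genes, 29 kept a difference below 0 in every setting in which they were tested. The others, none of them called, changed sign. Without PBS replicates 3 and 9 the differences were 2.1e-05 for Fcgr1, 0.11 for Il34, -0.098 for Ms4a7 and -0.11 for Timd4. With the lung score they were 0.015 for Fcgr1, 0.13 for Il34, 0.055 for Itgam, -0.068 for Ms4a7 and -0.078 for Timd4. Without ETX replicate 7 they were 0.043 for Fcgr1, 0.0081 for Il34 and -0.0095 for Ms4a7. Without PBS replicate 9 they were 0.042 for Il34 and -0.015 for Timd4, and without PBS replicate 12 Cd163 was at 0.051. Timd4 was at -0.0048 with array weights, -0.018 with centred arrays and with quantile normalization, -0.014 with the Xist level, -0.023 without PBS replicate 3 and -0.18 without ETX replicate 10. With 1 heart left out, the differences ran from -0.16 to 0.051 for Cd163, -0.19 to 0.043 for Fcgr1, -0.19 to 0.042 for Il34 and -0.18 to 0.12 for Timd4. The cause was not tested. Over all genes, 533 were called, against 909 with the filter at the median, 957 with the trend and robust eBayes, 19 without PBS replicates 3 and 9, 80, 134 and 126 with the lung, atrium and Xist covariates, and 94 to 241 with 1 heart left out. Dim genes such as Timd4, Aif1 and Ms4a7 lay near the limit of 3.45. No paired analysis was possible because the groups share no replicate numbers.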
